A study of Mus musculus with 6 samples.

Results

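The genes described are Nanog, Utf1, L1td1, Lin28a and Lin28b, 5 of the 20274 mouse genes that could be named on the array. They were taken as every probe whose RefSeq accession maps to one of these symbols, which gave 6 probes, 1 each for Nanog, Utf1, L1td1 and Lin28a and 2 for Lin28b. The genes were selected on their measured values in these same arrays, so their levels and differences are a description and carry no p-value. The samples were total RNA from cultured epiblast stem cells (EpiSC) of the mouse strain 129/Sv, pluripotent cells that correspond to the epiblast of the embryo after implantation. In the group called EpiSC the cells were kept in the medium that maintains the epiblast state. In the group called NPC1 they had spent 1 day, and in NPC2 2 days, in a condition that promotes neural plate development. Each group had 2 cultures, A and B, and all 6 came from a single seed culture, so the spread between A and B is that of sister cultures and may be technical. The labels name no altered gene and no transgene in any group.

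The 5 genes belong to the machinery by which pluripotent cells hold their identity. NANOG is a homeodomain transcription factor that works with OCT4 (the product of Pou5f1) and SOX2 in naive and primed pluripotent cells. UTF1 is a chromatin-associated protein of pluripotent cells, encoded by a known target of OCT4 and SOX2, and it has been linked to Polycomb-regulated genes and to mRNA decapping. L1TD1 is an RNA-binding protein derived from the first open reading frame of a LINE-1 retrotransposon and is found in cytoplasmic RNA granules. LIN28A and LIN28B are paralogous RNA-binding proteins that bind the precursors of the let-7 microRNAs and block their maturation, and both also bind many mRNAs. In the neural lineage Lin28 genes are known to stay on in early neuroepithelium and to go down later, as let-7 accumulates.

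Signals were read as processed intensity, the scanner software's background-subtracted brightness on a linear scale. A probe's values are compared between samples, and the brightness of different probes is not read as relative amounts of mRNA. Sums over marker probes lean on the brightest of them. Differences are in log2 units after each array was set to its own 75th percentile, and each standard error (SE) comes from 1 limma fit of the 3 groups. Between 58.2% and 61.1% of the 59305 non-control spots on an array were well above background, none was saturated, and the cultures of a group correlated at 0.9971 to 0.9976. Markers of the labelled cell states were present: the summed processed intensity of 8 epiblast markers was 157448 to 163494 in EpiSC, 116665 to 129405 in NPC1 and 77194.9 to 77807.9 in NPC2, while that of 10 neural plate markers was 3950 to 3974, 5679 to 6096 and 20048 to 20178. Of the epiblast sum Dnmt3b alone made 77422 and 78478 in EpiSC and 37047 and 38355 in NPC2. In NPC2 against EpiSC 6 of the 8 epiblast markers were called lower and Otx2 and Sox3 higher, and all 10 neural plate markers were called higher, at an adjusted p in limma under 0.05. Of the neural plate markers Pax6, Pou3f2 and Hes3 were not well above background in EpiSC and NPC1, and all 10 were in NPC2. Sox1, the earliest neural marker among them, read 47.5 and 43.8 in EpiSC and 2561 and 2472 in NPC2, a log2 difference of 5.72 (1.81 on its other probe). In RNA from whole cultures, fewer cells that hold an mRNA and less of it per cell cannot be told apart.

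All 6 probes were well above background on all 6 arrays. For none of them did any 2 groups overlap, but the share of all genes without overlap was not counted, so nothing is read from this. Differences were widespread on these arrays. A gene was called when its Benjamini-Hochberg adjusted p in the limma fit of 14773 genes was under 0.05. In NPC2 against EpiSC 28.3% of all genes were called higher and 40.7% lower. In NPC1 against EpiSC the shares were 21.3% and 29%, and in NPC2 against NPC1 20.8% and 26.6%. The members were picked on the same comparisons, so nothing is read from their number. The 5 genes took opposite courses. Utf1 and L1td1 were lower in NPC1 than in EpiSC and lowest in NPC2, 21.2-fold and 21.1-fold below EpiSC, whereas Nanog, Lin28a and Lin28b were higher in the NPC2 cultures than in the EpiSC cultures.

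**Figure D1:**
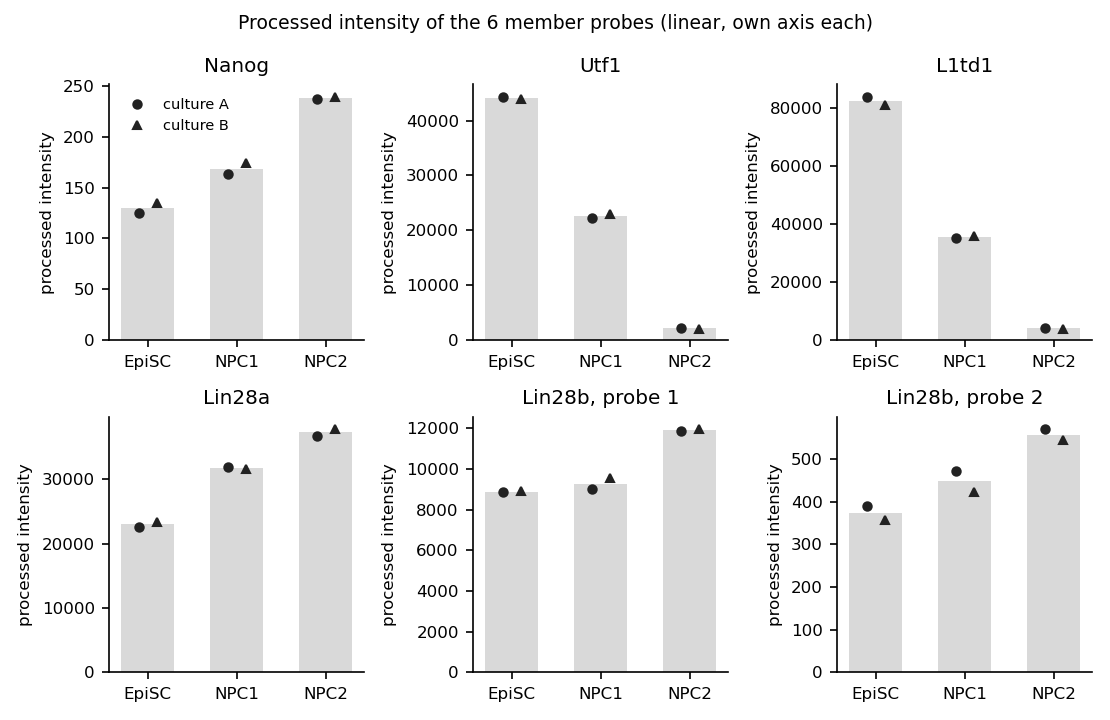
Processed intensity (linear, own axis for each probe) of the 6 probes in EpiSC, NPC1 and NPC2; circles are culture A, triangles culture B and bars the mean of the 2. Utf1 and L1td1 step down to below 5% of their EpiSC level, while the other 4 probes are highest in NPC2.

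Utf1 had processed intensities of 44349 and 43893 in EpiSC cultures A and B, 22215 and 23070 in NPC1, and 2263 and 2099 in NPC2. The sister cultures lay close together and the groups lay far apart. On the log2 scale the difference of the NPC1 mean from the EpiSC mean was -0.95 (SE 0.053, n = 2 per group), and that of the NPC2 mean was -4.40 (SE 0.053). In linear terms 51.6% of the EpiSC signal was left after 1 day and 4.73% after 2 days. The second day took the larger step: the NPC2 mean was 10.9-fold below NPC1, against 1.94-fold for NPC1 below EpiSC. Day 1 thus held 21.7% of the log2 difference seen after 2 days.

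L1td1 had processed intensities of 83883 and 81152 in EpiSC, 35154 and 35727 in NPC1, and 4238 and 3959 in NPC2. Its course ran next to that of Utf1. The log2 difference from EpiSC was -1.21 (SE 0.056) in NPC1 and -4.40 (SE 0.056) in NPC2, with 43.2% and 4.75% of the EpiSC signal left. NPC2 was 9.10-fold below NPC1, and day 1 held 27.5% of the log2 difference seen after 2 days. L1td1 was somewhat ahead of Utf1 on day 1, and after 2 days the log2 differences of the pair from EpiSC were equal to 2 decimals. Even in NPC2 neither probe was near the floor: the raw median spot signal of Utf1 was 2460 and 2305 there and that of L1td1 4898 and 4625, over local backgrounds of 24 to 29.

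Among the 13628 genes well above background on all EpiSC and NPC2 arrays, 22 had a more negative log2 difference than Utf1 and 23 a more negative one than L1td1. In NPC1 against EpiSC the pair stood less far out, with 510 and 336 of 13792 genes below them. In NPC2 against NPC1 the numbers below them were 9 and 18 of 13859. These places describe genes that were picked for their values, and the comparisons share arrays.

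The sequence just upstream of the annotated starts of both genes is shown because the pair moved together; it is RefSeq sequence of build GRCm38.p6, the 250 bases before the start, 5′ to 3′ on the gene's strand, for chr7:139943606-139943855 (Utf1, plus strand) and chr4:98726504-98726753 (L1td1, plus strand).
Utf1: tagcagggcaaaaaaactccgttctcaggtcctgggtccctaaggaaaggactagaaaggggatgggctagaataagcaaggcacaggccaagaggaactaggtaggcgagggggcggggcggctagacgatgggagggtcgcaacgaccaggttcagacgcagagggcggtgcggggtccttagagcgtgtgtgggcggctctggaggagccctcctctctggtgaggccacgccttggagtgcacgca
L1td1: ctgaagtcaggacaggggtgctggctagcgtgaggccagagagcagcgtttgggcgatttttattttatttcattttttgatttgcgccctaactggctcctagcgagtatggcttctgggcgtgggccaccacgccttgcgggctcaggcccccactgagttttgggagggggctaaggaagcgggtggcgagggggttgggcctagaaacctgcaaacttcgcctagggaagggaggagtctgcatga

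Every window of 300 bases (250 before and 50 after a start, 32851 windows) was searched on both strands for short motifs. The octamer bound by POU factors, ATTTGCAT, was in 1.74% of all windows. Its core without the first base, TTTGCAT, was in 4.63%; every octamer also counts as a core, and the core was added after the promoters had been seen. One form of the Sox core, ACAAAG, was in 18.7% of windows. The other form of the Sox core, ACAAT, was in 31% of windows, and the TATA box, TATAAA, was in 13.6%. Neither the Utf1 nor the L1td1 window held any of these letters, which is why the sequences above have no capitals, and this says nothing on what binds elsewhere at these genes. Both windows held more CG than the median window: 17 CG dinucleotides for Utf1 and 14 for L1td1, against a median of 7. Their GC content was 62% and 58.7%, against a median of 52.7%. The share of windows with fewer CG was 68.6% and 63.7%, so neither is an extreme. CG above the median was not particular to the pair. The window of Lin28a, which was higher in NPC2, held 10 CG with a GC content of 63.3%. That of Lin28b held 8 CG with 39%, and the first of Nanog 4 with 54.3%.

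Nanog was low in EpiSC and higher on each day. Its processed intensities were 125 and 134 in EpiSC, 163 and 174 in NPC1, and 238 and 239 in NPC2. The groups followed the order EpiSC, NPC1, NPC2 with no overlap. The log2 difference from EpiSC was 0.38 (SE 0.053) in NPC1 and 0.82 (SE 0.053) in NPC2, or 1.31-fold and 1.76-fold higher, and day 1 held 47.2% of it. The signal was modest: the raw median of the spot was 169.5 and 175 in EpiSC, and 291.5 and 297.5 in NPC2, over a local background of 24 to 27. A model-based background correction, which also adds a constant of 50 to each signal, lowered the NPC2 difference to 0.62. The part of that constant in the drop was not tested. The deposited value table, which differs only in scaling, raised it to 1.04 along with all other genes. The mouse genome holds processed copies of Nanog, and whether this single probe also reads one of them was not tested. In NPC2 against EpiSC 1394 of 13628 genes, 10.2%, had a larger positive difference.

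The Nanog promoter is shown because it carries an octamer core beside a Sox core, the arrangement known as an octamer and Sox element. The full octamer, ATTTGCAT, was in no window of Nanog or of any other member. The stretch shown is chr6:122707239-122707488, plus strand, GRCm38.p6, with the octamer core and the Sox core in capitals.
Nanog: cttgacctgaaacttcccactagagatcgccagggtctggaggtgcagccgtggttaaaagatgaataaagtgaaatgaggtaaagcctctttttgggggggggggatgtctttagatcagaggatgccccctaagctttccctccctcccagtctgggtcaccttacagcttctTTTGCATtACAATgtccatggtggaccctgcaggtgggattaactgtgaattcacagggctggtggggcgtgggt

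The octamer core ran from -75 to -69 and the Sox core ACAAT from -67 to -63, counted from the annotated start, with 1 base between them. This arrangement, on either strand, was found in 8 of the 32851 windows, 0.0244%, which belonged to 6 of 27025 genes. Core and spacing were taken from the Nanog promoter itself after it had been seen, so this is the share of a pattern fitted to that promoter. In all, 2 of those windows were the overlapping ones of Nanog's own 2 annotated starts. From the second start, whose window is chr6:122707315-122707614, the same letters lay at -151 to -145 and at -143 to -139. The window held 4 CG dinucleotides. The element is a match of letters, and binding was not measured here.

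**Figure D2:**
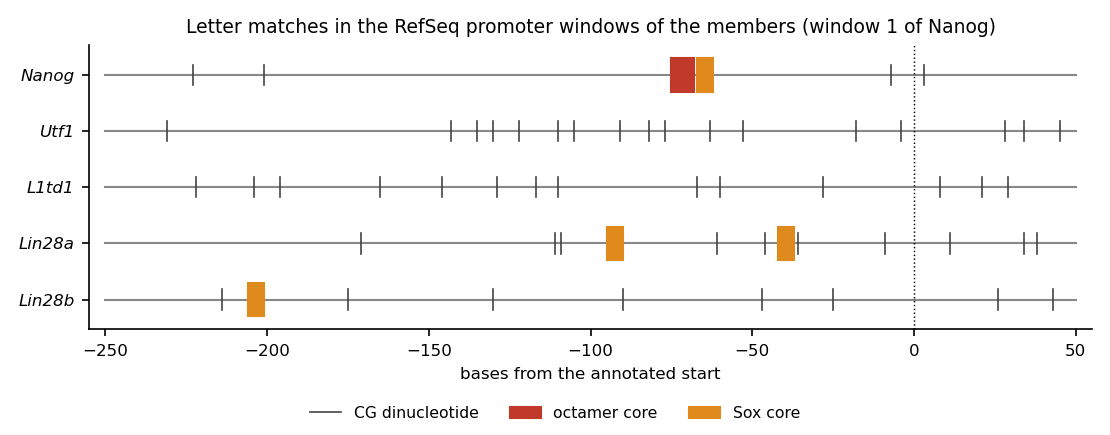
Letter matches along the RefSeq promoter windows of the 5 genes, in bases from the annotated start (dotted line); thin ticks are CG dinucleotides, the red block is the octamer core and orange blocks are the Sox core ACAAT on either strand. Nanog alone among these 5 windows has the octamer core, beside a Sox core, and Utf1 and L1td1 have many CG ticks and no block.

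Lin28a was already bright in EpiSC, at 22626 and 23352, and stood at 31814 and 31622 in NPC1 and at 36733 and 37791 in NPC2. All NPC1 values lay above all EpiSC values, and all NPC2 values above all NPC1 values. The log2 difference from EpiSC was 0.47 (SE 0.056) in NPC1 and 0.63 (SE 0.056) in NPC2, or 1.39-fold and 1.55-fold higher. Most of it, 74.8%, was present after day 1, and the step from NPC1 to NPC2 was 0.16 (SE 0.056), or 1.12-fold. That step was larger with quantile normalization, at 0.32 of an NPC2 difference of 0.89. It lay between 0.11 and 0.21 when a single array was left out.

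Lin28b was read by 2 probes, which are described separately. The first gave 8856 and 8904 in EpiSC, 9006 and 9575 in NPC1, and 11890 and 11974 in NPC2. The second, a far dimmer spot, gave 389 and 356, then 471 and 423, then 570 and 544. Both had their highest values in NPC2. For the first probe the log2 difference from EpiSC was 0.073 (SE 0.042) in NPC1 and 0.36 (SE 0.042) in NPC2, or 1.05-fold and 1.29-fold higher. For the second it was 0.27 in NPC1 and 0.52 in NPC2, or 1.21-fold and 1.43-fold higher. The probes therefore differed on day 1, when the first held 20.2% and the second 52.3% of its NPC2 difference. The day 1 value of the first probe was small enough to change sign with the scaling, to -0.03 when arrays were set to their median, so no direction is given for Lin28b in NPC1 from that probe.

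Because scaling shifts all genes together, the members were also read against the median of all genes tested. That median was -0.05 in NPC1 and -0.10 in NPC2 against EpiSC; median scaling moved it to -0.15 and -0.18, and the deposited value table to 0.07 and 0.13. Over 9 processing settings the NPC2 difference from the median gene lay between -4.31 and -4.21 for Utf1, -4.30 and -4.24 for L1td1, 0.70 and 0.92 for Nanog, 0.73 and 0.89 for Lin28a, and 0.46 and 0.62 for Lin28b. In NPC1 that of Lin28b lay between 0.09 and 0.22. Settings that shift all genes alike, such as median scaling and the value table, leave these relative values as they are, as does the replicate block, so the ranges come from the other settings.

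**Figure D3:**
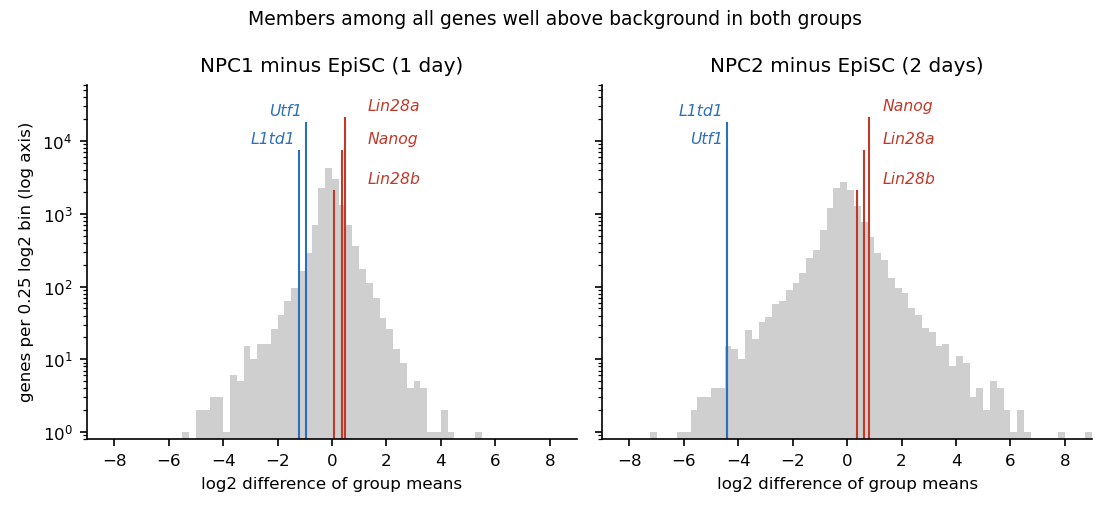
Distribution of log2 differences of group means over all genes well above background in both groups (bins of 0.25, log count axis) for NPC1 minus EpiSC and NPC2 minus EpiSC, with the members marked (blue lower, red higher). Utf1 and L1td1 move from the shoulder after 1 day to the far left edge after 2 days, and Nanog and Lin28a lie on the right flank. Lin28b lies within the bulk in NPC1, where 34.8% of genes are higher and median scaling turns it negative, and further right in NPC2.

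The let-7 family is the best known target of both LIN28 proteins. Its mature members share the seed GAGGUAG at bases 2 to 8, and LIN28 is known to contact a GGAG in the loop of many precursors. RefSeq lists 11 mature entries with this seed (9 distinct sequences), and 8 of the 11 hairpins they come from have GGAG in the loop. One hairpin (88 bases, chr9:106178840-106178927, plus strand, GRCm38.p6, with GGAG in capitals) and 2 mature sequences (seed in capitals) are shown to make the element visible.
Mirlet7g hairpin: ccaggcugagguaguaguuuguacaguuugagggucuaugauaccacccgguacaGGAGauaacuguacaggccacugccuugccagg
mmu-let-7g-5p: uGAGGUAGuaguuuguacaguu
mmu-let-7a-5p: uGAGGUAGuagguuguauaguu

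The mature microRNAs were not analysed here, so the state of let-7 itself is not given by these arrays, and only mRNAs of the pathway are described. Counts in the lists that follow are set beside the shares of all genes called. Those shares, higher and lower, were 28.3% and 40.7% in NPC2 against EpiSC and 21.3% and 29% in NPC1 against EpiSC. In NPC2 against NPC1 they were 20.8% and 26.6%. Calls in both directions were thus found over all genes. The lists were chosen with earlier results of these data known, so their counts are a description and test nothing. In NPC1 against EpiSC 4291 genes were called lower, and fewer were called lower whichever array was left out. That held for the NPC2 arrays too, which share the fit but are not part of this comparison. The split of calls also moved with scaling, so the shares above are no background for list counts given under other settings. The lower share of all calls in NPC1 against EpiSC was 57.7%, but 71% with median scaling and 37.9% in the deposited value table; in that table it was 38.8% rather than 59% in NPC2 against EpiSC and 41% rather than 56.1% in NPC2 against NPC1.

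Genes that make, trim or destroy let-7 changed in both directions. Of 20 tested, 7 were called higher and 4 lower in NPC2 against EpiSC, with a median log2 difference of 0.03, beside -0.10 for all genes. That list median was -0.05 with median scaling, beside -0.18 for all genes. In the deposited value table it was 0.26, beside 0.13 for all genes. That table called 13 of the 20 higher and 3 lower, beside 6158 and 3899 of all 14773 genes. Dis3l2, the exonuclease that degrades uridylated let-7 precursors, rose by 0.56 (SE 0.056, adjusted p = 0.000678) and Tut4, a terminal uridylyltransferase that LIN28A recruits to the precursor, rose by 0.49 (SE 0.074, adjusted p = 0.00315). Its paralog Tut7 had a difference of 0.10 (SE 0.050, adjusted p = 0.119), and passed the test with quantile normalization (adjusted p = 0.00903) and in the value table, over a range of 0.00367 to 0.719 in all settings. Prkra, a partner of Dicer, rose 2.53-fold (log2 1.34, adjusted p = 3.06e-05), while Tarbp2, the other such partner, fell by 0.68 on the log2 scale (adjusted p = 0.000302). Ago4, an Argonaute, rose by 2.43 (adjusted p = 0.000333) from a weak signal of 23.4 and 16.8 in EpiSC. Syncrip, an RNA-binding protein of the hnRNP family, had a difference of -0.65 (adjusted p = 0.000619) on its brighter probe and -0.05 on its other, so its direction is unsettled. Trim71, a ubiquitin ligase and classic let-7 target that stands in both let-7 lists, did not pass in any comparison, with differences of 0.03 in NPC1 (adjusted p = 0.742) and -0.13 in NPC2 (adjusted p = 0.184).

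After 1 day 6 of these 20 were called higher and 6 lower. Leaving out any single array gave 1 to 3 higher, and median scaling gave 2 higher. The lower count was 2 without EpiSC culture A, and 3 without EpiSC culture B, without NPC1 culture B or in the value table. The calls of Tut4 (log2 0.26, adjusted p = 0.0401), Dis3l2 (0.20, adjusted p = 0.038) and Ago4 (0.77, adjusted p = 0.0263) on day 1 were lost in 8, 9 and 8 of 14 alternative settings, with an adjusted p of 0.00854 to 0.157, 0.00709 to 0.222 and 0.0150 to 0.547. In NPC2 against NPC1 7 were called higher and 2 lower. Without NPC2 culture B the higher count was 4, and the lower count was 0 or 1 when any single array was left out.

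Known let-7 targets and mRNAs bound by LIN28 did not move one way either. Of 26 tested, 11 were called higher and 13 lower in NPC2 against EpiSC, with a median of -0.19, beside -0.10 for all genes. In the value table the list median was 0.04 and that of all genes 0.13. With quantile normalization they were 0.02 and 0.001. Igf2, a growth factor whose mRNA LIN28 binds, rose by 2.52 (SE 0.153, adjusted p = 0.000139), from 21.4 and 27.0 in EpiSC to 161 and 129 in NPC2. Nr6a1, a nuclear receptor that represses Oct4, rose by 1.82 (SE 0.104, adjusted p = 0.000115). Cdk6, a cell cycle kinase, fell by 3.17 (SE 0.080, adjusted p = 1.39e-05), from 199 and 207 to 22.3 and 25. Igf2bp1, an mRNA-binding protein and a let-7 target, fell by 0.79 (SE 0.078, adjusted p = 0.000681).

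Hmga2 and Myc dipped on day 1 and came part of the way back. Hmga2, a chromatin protein and the best known let-7 target, read 3035 and 3086 in EpiSC, 1530 and 1517 in NPC1, and 2615 and 2702 in NPC2. It fell by 1.00 on day 1 (SE 0.056, adjusted p = 0.000366) and rose by 0.73 from NPC1 to NPC2 (adjusted p = 0.000631). Its NPC2 difference from EpiSC, -0.27 (adjusted p = 0.0099), was lost with quantile normalization (adjusted p = 0.188), in the value table (0.558) and without EpiSC culture B (0.0546) or NPC2 culture A (0.0537), over a range of 0.00401 to 0.558 in all settings. Myc fell by 2.45 on day 1 (SE 0.042, adjusted p = 6.6e-05) and rose by 0.52 on the second day (adjusted p = 0.000731), to end at -1.93. After 1 day 8 of the 26 were called higher and 13 lower, the higher count being 5 without EpiSC culture A or without NPC1 culture A. In NPC2 against NPC1 12 were called higher and 9 lower, the lower count being 4 without NPC2 culture A.

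**Figure D4:**
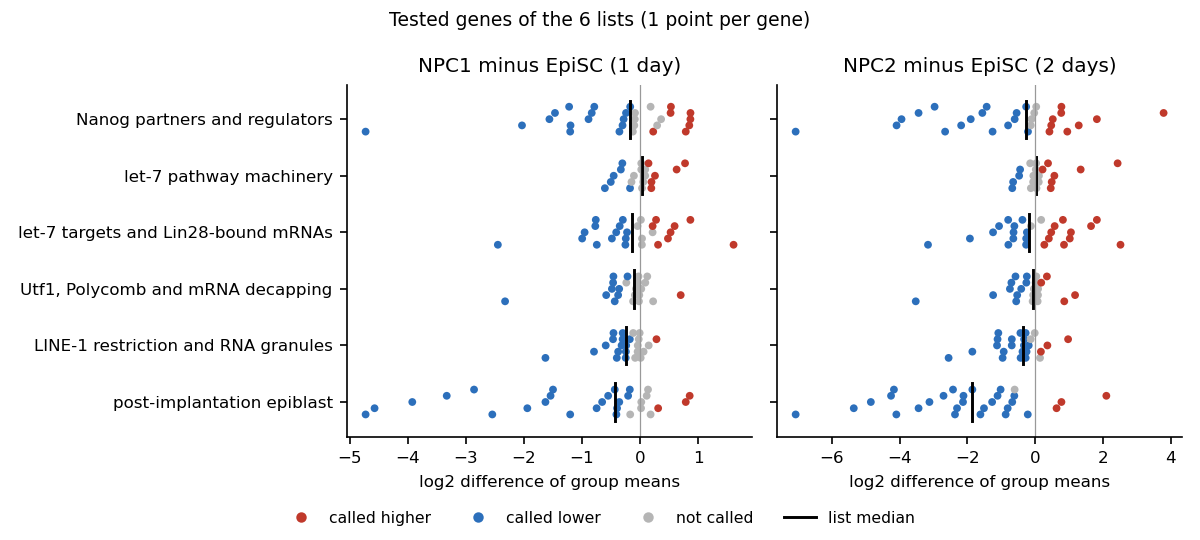
Log2 differences of group means for every tested gene of the 6 lists, 1 point per gene, in NPC1 minus EpiSC and NPC2 minus EpiSC; red was called higher, blue lower, grey not called, and black bars are list medians. As scaled here, the medians of the 5 upper lists lie between -0.36 and 0.03 after 2 days, and that of the post-implantation epiblast list lies at -1.86.

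Genes listed as Nanog's partners and regulators were called in both directions, as were genes over the whole array. Of 30 genes listed, 29 were tested (Prdm14 was not well above background in any group). In NPC2 against EpiSC 9 of the 29 were called higher and 16 lower, beside 28.3% and 40.7% of all genes. The list median was -0.27, beside -0.10 for all genes, and in the value table -0.04, beside 0.13. Pou5f1, which encodes OCT4, read 28624 and 32048 in EpiSC, 16315 and 18617 in NPC1, and 5080 and 4941 in NPC2. It fell, with a difference from EpiSC of -0.79 in NPC1 (SE 0.073, adjusted p = 0.00138) and -2.66 in NPC2 (adjusted p = 1.59e-05). Sox2, which keeps both pluripotent and neural cells, rose by 0.79 on day 1 (SE 0.065, adjusted p = 0.000994) and by 1.28 over 2 days (adjusted p = 7.83e-05). Sall4, a zinc finger partner of NANOG and OCT4, had a difference of -0.10 on day 1 (adjusted p = 0.133) and rose by 0.42 over 2 days (SE 0.046, adjusted p = 0.000991).

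The deepest losses among these listed genes were in Tdgf1, the Nodal co-receptor, which fell on both days. Its differences from EpiSC were -4.73 in NPC1 and -7.07 in NPC2 (adjusted p = 6.92e-05 and 6.45e-06). Another probe of Tdgf1 gave -1.41 and -1.36. Foxd3, a forkhead factor of the epiblast, fell by 4.09 over 2 days (SE 0.203, adjusted p = 7.53e-05). Nr0b1, an orphan nuclear receptor of pluripotent cells, was not well above background in NPC2 and was at least 6.04-fold lower there (adjusted p = 1.98e-05). Tbx3, a T-box factor, was not well above background in EpiSC and NPC1 and was at least 3.74-fold higher in NPC2 than in EpiSC (adjusted p = 0.000302). These bounds set the bright group against the lowest signal that counted as well above background on the dim arrays. After 1 day 7 of 29 were called higher and 15 lower, and in NPC2 against NPC1 7 and 16.

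Most genes of the list drawn up for the epiblast after implantation fell. The list also holds genes of naive pluripotency such as Zfp42, so its counts do not describe that stage alone. Of 29 tested (Chd7 was not), 25 were called lower and 3 higher (Otx2, Sox3 and Sall2) in NPC2 against EpiSC, 20 of the 25 by at least 2-fold, and the median log2 difference was -1.86 against -0.10 for all genes; with the model-based background correction it was -1.17, with the same number called. Fgf5, the growth factor that marks this stage, fell as well, with a difference of -1.94 in NPC1 and -4.26 in NPC2 (SE 0.091, adjusted p = 0.000233 and 1.12e-05). Tdh, threonine dehydrogenase of pluripotent cells, fell by 5.36 (SE 0.152, adjusted p = 1.73e-05). Lefty1, a Nodal antagonist, had its whole loss on day 1, when it fell by 4.57 (adjusted p = 4.15e-05), and then rose by 0.40 (adjusted p = 0.0045). Dppa2, a chromatin protein of pluripotent cells, was not well above background in NPC1 and NPC2 and was at least 7.72-fold and 7.76-fold lower there (adjusted p = 0.00332 and 0.000791). After 1 day 20 of 29 were called lower and 3 higher (5 with quantile normalization or in the value table), with a median of -0.44, and in NPC2 against NPC1 21 were called lower and 4 higher.

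Genes that restrain LINE-1 elements or build the RNA granules in which L1TD1 sits were mostly lower by small amounts. Of 24 tested, 18 were called lower and 3 higher in NPC2 against EpiSC, and 5 fell by at least 2-fold. The list median was -0.36, beside -0.10 for all genes. The value table had 11 called lower and 5 higher, beside 3899 lower and 6158 higher of all 14773 genes. Its list median was -0.13, beside 0.13 for all genes. Tex19.1, a gene of germ cells and pluripotent cells that curbs retrotransposons, fell by 2.56 (SE 0.082, adjusted p = 2.3e-05). Of the DNA methylation genes, Dnmt3l, Dnmt3a and Dnmt3b fell, with differences of -1.86, -1.13 and -1.11 (adjusted p = 3.06e-05, 8.27e-05 and 5.54e-05). Dnmt1 was called higher, with a difference of 0.17 (adjusted p = 0.0489), and Uhrf1 was not called (0.14, adjusted p = 0.0508). Dnmt3l was already at -1.63 after 1 day (adjusted p = 0.000161), whereas the day 1 call of Dnmt3b (-0.18, adjusted p = 0.0359) was lost in the value table and when any single array was left out (adjusted p = 0.0152 to 0.385 over all settings). After 1 day 14 of 24 were called lower and 1 higher; 8 were lower without EpiSC culture A, and 9 without EpiSC culture B, without NPC1 culture B, with quantile normalization or in the value table. In NPC2 against NPC1 11 were called lower and 4 higher, with 1 or 2 higher when any single array was left out.

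Polycomb and decapping genes, with which UTF1 has been linked, mostly moved little, and in both directions. Of 22 tested, 4 were called higher and 10 lower in NPC2 against EpiSC, with a median of -0.07, beside -0.10 for all genes. The value table called 10 higher and 8 lower, beside 6158 and 3899 of all 14773 genes. Its medians were 0.15 for the list and 0.13 for all genes. Quantile normalization called 8 higher and 9 lower, beside 4979 and 4863 of all genes. Cdkn2a, the tumour suppressor locus that Polycomb silences, fell by 3.53 (SE 0.130, adjusted p = 3.3e-05), from 662 and 691 to 67.5 and 55.8. Another Cdkn2a probe, well above background on only 2 arrays, gave -2.04. From NPC1 to NPC2 the probes went opposite ways, with -1.20 on the first and 1.09 on the other. Phf19, a cofactor of Polycomb repressive complex 2, fell by 1.24 (SE 0.072, adjusted p = 0.000118), and Ezh1, one of its catalytic subunits, rose by 1.18 (SE 0.058, adjusted p = 7.37e-05). Ring1, a ubiquitin ligase subunit of the other Polycomb complex, rose by 0.86 (SE 0.141, adjusted p = 0.00412). After 1 day 1 of 22 was called higher and 9 lower, the lower count being 5 without EpiSC culture A. In NPC2 against NPC1 6 were called higher and 5 lower, with 2 or 3 higher when any array but NPC1 culture B was left out.

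Utf1 and L1td1 are also expressed in germ cells, as is Lin28a, so markers of that lineage were read alongside. Of 10 germ cell markers, Ddx4, Dazl, Prdm14 and Dppa3 were not well above background in any group, and the summed processed intensity of the other 6 was 1416 to 1470 in EpiSC, 974 to 1120 in NPC1 and 1203 to 1289 in NPC2. Among these 6, Prdm1, Nanos3 and Dnd1 were called lower and Dmrt1 higher in NPC2 against EpiSC. Sycp3 was not well above background in NPC2. Of the markers of naive pluripotency, the state NANOG is best known for upholding, the 9 tested summed to 12709 to 12802 in EpiSC, 6551 to 6700 in NPC1 and 1794 to 1950 in NPC2; 7 of the 9 were called lower in NPC2 against EpiSC and Tbx3 higher.

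Markers of other lineages moved as well. The 8 markers of primitive streak and mesoderm summed to 5713 to 5899 in EpiSC, 683 to 812 in NPC1 and 886 to 992 in NPC2, and 7 were called lower and Tbx6 higher in NPC2 against EpiSC; Mixl1 and Hand1 were not well above background in either NPC group. The 6 endoderm markers tested (Gata4 was not) summed to 3922 to 3958, 667 to 720 and 1363 to 1384, and 5 were called lower and Hhex higher. The 5 trophoblast markers tested (Cdx2 and Elf5 were not) summed to 1837 to 1917, 1777 to 1914 and 905 to 911, and all 5 were called lower. The 8 fibroblast and feeder markers tested (Lum was not) summed to 2987 to 3135, 3878 to 3981 and 4955 to 5261, with 4 called higher and 2 lower. The part of any of these cell types in the members' values was not tested.

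The genes whose profile over the 6 arrays was nearest to that of each member were found by the root mean square (RMS) difference between centred log2 values, over 13546 candidates well above background on all arrays. For Utf1 they were Plaur (RMS 0.099), Mal2 (0.120), L1td1 (0.123), Lgals3 (0.133) and D7Ertd143e (0.143). For L1td1 they were D7Ertd143e (0.063), Plaur (0.087), Ccnb1ip1 (0.103), Utf1 (0.123) and Lgals3 (0.152). Each of the pair was thus among the 5 nearest genes of the other, but both had been picked for a loss. Plaur, the urokinase receptor, had a log2 difference of -4.26 in NPC2 against EpiSC, and Lgals3, galectin-3, one of -4.11. Both were picked by these same profiles, so no test is given. Mal2, a membrane trafficking protein, read 736 and 781 in EpiSC and 31.3 and 33 in NPC2. Few genes had such a course, and at rank 100 the RMS had grown to 0.747 for Utf1 and 0.713 for L1td1.

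For the 3 members with smaller differences the neighbourhood was crowded, with an RMS of 0.073, 0.069 and 0.044 still found at rank 100 for Nanog, Lin28a and Lin28b. The nearest genes to Nanog were Abca3 (RMS 0.029), Baz2b (0.032), Zfp128 (0.033), Pomgnt2 (0.034) and Bbs7 (0.037). Those of Lin28a were AU040320 (0.024), Nemp2, Rbms2, Odf2 and Zbtb10 (0.035), although a second probe of Odf2 gave -0.07 and -0.14. Those of Lin28b were Cluap1 (0.013), Hnrnpr, Adnp, Smarcal1 and Rnf123 (0.020). None of these genes is in a list described above.

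**Figure D5:**
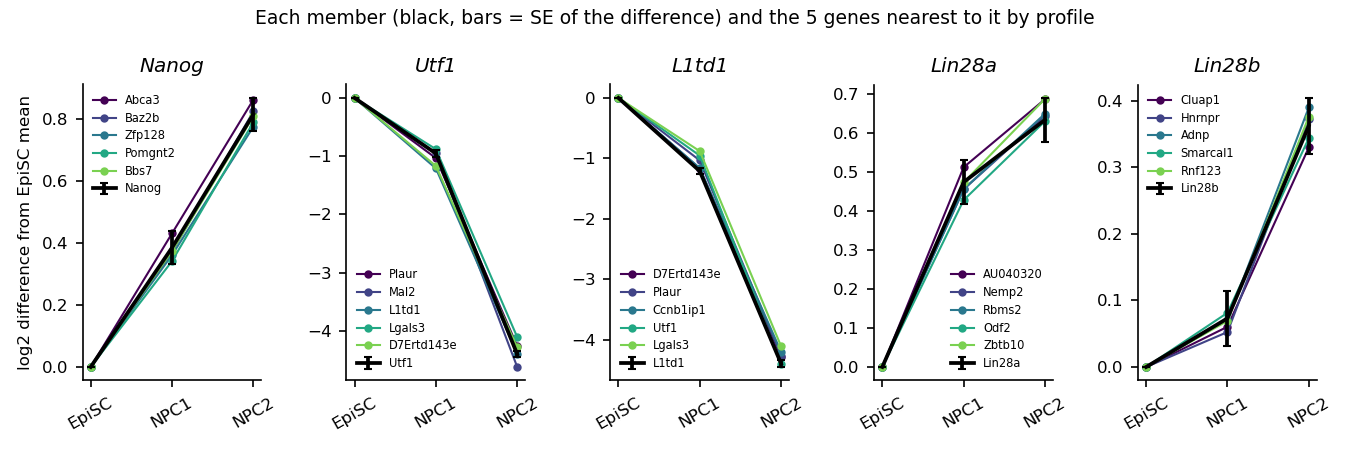
Log2 difference from the EpiSC mean for each member (black, bars are the SE of the difference) and for the 5 genes nearest to it by profile (colours), with an own vertical axis in each panel. Utf1 and L1td1 share most of their neighbours and bend down after NPC1, Nanog and its neighbours climb steadily, Lin28a and its neighbours climb mostly on day 1, and the brighter Lin28b probe and its neighbours mostly on the second day; the other Lin28b probe, not drawn, had 52.3% of its difference on day 1.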

How the data were processed

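Total RNA of 6 cultures was labelled with Cy3 and read on 1-colour Agilent arrays. The authors deposited scanner files, written by Agilent Feature Extraction 10.10.1.1 per the file headers, with a background-subtracted processed intensity for each spot (linear scale), and a value table that equals the processed intensity times 1 constant per array (2.10 to 2.41). All arrays lay on 1 slide, scanned once. Values were taken as log2, set against the 75th percentile of their array, and fitted with limma 3.58.1 in R 4.3.3 (lmFit, eBayes, two-sided, 3 groups, 3 residual degrees of freedom) for 14773 genes. The brightest probe stood for a gene; it had to be well above background on both arrays of some group. P-values were adjusted by Benjamini-Hochberg within each comparison and measure only the spread between these cultures. Of 55681 probes, 28372 have a RefSeq accession and 26744 were named through RefSeq symbols. The scripts were tested on simulated data.

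The member genes and the 6 lists were chosen with earlier results of these data known. Genes named in the text are the members, a set always named and the 5 genes nearest to each member. The set always named was Pou5f1, Sox2, Sall4, Sox1, Trim71, Hmga2, Tut4, Tut7, Dis3l2, Dnmt3b and Igf2bp1. The called genes of each list with the largest differences (4 in NPC2 and 2 in NPC1 against EpiSC) were named too. Dnmt1 and Uhrf1 were added to them, without alternatives. Alternatives were normexp (offset 50, on median spot signal because mean signal was not used here), median and quantile scaling, the value table, 2 other filters, the mean over probes, leaving out each array, and the culture letter as a block. Letters A and B did not pair the samples (correlations of deviations 0.008, 0.006 and -0.045). Sequences are from RefSeq tables of build GRCm38.p6, and all 5 members matched a promoter window. The number of arrays limits the precision, and brightness limits it for dim probes.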

Additional observations from a re-analysis of the deposited data

How the results depend on the processing

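Of the members, Utf1, L1td1, Nanog and Lin28a kept their direction in all 3 comparisons under all 14 alternatives, and so did Lin28b except in NPC1 against EpiSC. There median scaling turned the difference of 0.073 into -0.027, while the other alternatives kept it above 0; median scaling shifts all genes of that comparison by the same amount. Of 210 values of member differences, 160 moved by less than the spread between cultures, 49 by more, and 1 changed sign. The count of genes called in NPC1 against EpiSC was 7433, and 4881 to 6720 when a single array was left out, the lowest without EpiSC culture B. The fits without an array have fewer samples, and the lone array of a group was assumed to vary like the other groups. In NPC2 against EpiSC the count was 10195 (8563 to 10275) and in NPC2 against NPC1 7015 (5021 to 6117). With the replicate block the counts were 6868, 9873 and 6477; the culture letters are only a shared label here. For the other named genes, 2130 values kept their call, 100 lost it and 29 gained it. For the dim Nanog probe normexp lowered the NPC2 difference from 0.82 to 0.62.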
